A study of Mus musculus with 10 samples.

Results

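The enzymes and the chaperone that fold, modify and crosslink collagen were followed in cultured mouse neural tube. Wild-type tissue was compared with Ednrb-/- tissue, Ednrb being an endothelin receptor gene. The 10 genes were taken by symbol from the table of gene levels, which holds 42465 gene models, and each symbol matched 1 model. They are the collagen chaperone gene Serpinh1, the prolyl 4-hydroxylase subunit genes P4ha1, P4ha2 and P4ha3, the lysyl hydroxylase genes Plod1, Plod2 and Plod3, and the lysyl oxidase genes Lox, Loxl1 and Loxl2. Explants of neural tube with its neural crest cells came from embryos of embryonic day 9.5 of the WT (wild type) and the Ednrb-/- genotype, each with 5 libraries called biological replicates. Both genotypes were cultured for 4 days in DMEM with L-glutamine, gentamicin, 10% fetal bovine serum and 20 nM EDN3, a peptide that activates the receptor. The labels give neither the strain nor the construction of the Ednrb allele, and do not say how many embryos made up a replicate. The study's title places the work in the question of how the receptor acts on dividing melanoblasts, from which pigment cells arise.

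Collagen chains are made in the endoplasmic reticulum (ER), where prolyl 4-hydroxylases act on their prolines so that the triple helix is stable at body temperature. Serpinh1 binds the folded helix and accompanies it out of the ER, and lysyl hydroxylases prepare lysines that later carry sugars or crosslinks. Outside the cell, the copper enzymes of the lysyl oxidase family oxidise lysines of collagen and elastin, and the products join neighbouring molecules into a stiff network. In the embryo such a matrix surrounds the neural tube and lines the paths of migrating neural crest cells.

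Levels are given as FPKM, the fragments of a gene scaled by its length and by the size of the library, so that levels of different genes can be set side by side. Reads worked back from them summed to between 13022266 and 19532570 per library, and 15156 genes reaching 0.5 FPKM in 5 or more libraries were tested, all 10 genes of the set among them. Ednrb was between 43.8 and 60.7 FPKM in WT and between 2.34 and 11.7 FPKM in Ednrb-/- libraries, and no library went against its genotype label. Reads of Ednrb remained in every Ednrb-/- library, with 161 in the lowest. Markers of neural tube progenitors and neurons were present throughout, with summed levels of 195 to 324 FPKM (10 genes) and 1080 to 1408 FPKM (10 genes) in WT and of 239 to 268 and 1745 to 2003 FPKM in Ednrb-/-. Peripheral glial markers summed to 229 to 466 FPKM in WT and 399 to 530 FPKM in Ednrb-/-, and melanocyte markers to 71.7 to 216 and 11.1 to 20.7 FPKM. Of the 7 glial markers tested between genotypes 6 fell and 1 rose, so their sum does not show the direction of most of them. Of 10 neuron markers tested 9 rose and 0 fell. Of 10 progenitor markers 1 fell and 0 rose, and of 7 melanocyte markers 6 fell and 0 rose. Over all genes tested 13% fell and 6.53% rose. The blood and macrophage list stayed at 1.17 to 2.91 FPKM in all libraries, with the globin gene Hba-a1 at 0, and 7 of 8 endothelial markers never reached 1 FPKM.

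Of the 10 genes, 7 fell in Ednrb-/- explants and 0 rose, while 3 did not pass the test. Those that fell were Serpinh1, P4ha2, Plod1, Plod3, Lox, Loxl1 and Loxl2. They include the chaperone gene and genes of each enzyme family of the set, of the prolyl 4-hydroxylase genes P4ha2 alone. P4ha1, P4ha3 and Plod2 did not pass. Over all genes tested 19.5% changed, 13% falling and 6.53% rising (limma, Benjamini-Hochberg adjusted p under 0.05). In 4 of the 10 genes, every Ednrb-/- library was below every WT library, which held for 8.44% of all genes tested, and in 0 of the 10 was every Ednrb-/- library above every WT library, which held for 4.78%. The median log2 fold change of the 10 genes was -1.50, beside 0.0048 over all genes tested. Log2 fold changes compare Ednrb-/- with WT after adding 0.5 FPKM to each value, so those of genes with low levels come out too small, and a negative value is a lower level in Ednrb-/-. In explants of mixed cells, fewer cells of a type and less RNA per cell cannot be told apart.

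**Figure D1:**
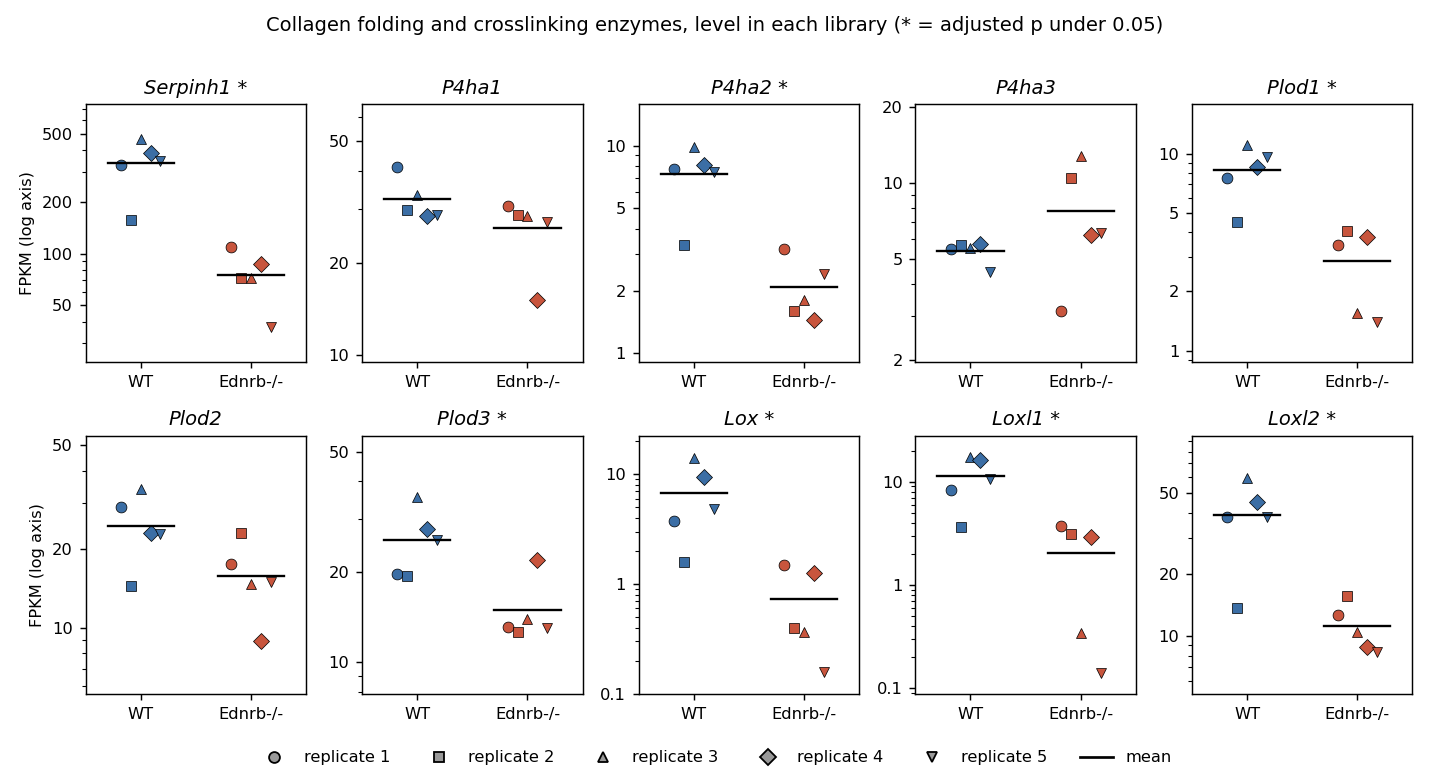
Level of each of the 10 genes in every library, in FPKM on a log axis whose range differs between panels. Symbols mark the replicate number, blue is WT, red is Ednrb-/- and the bar is the mean of 5 libraries. The 4 panels in which no red point reaches the lowest blue point are Serpinh1, P4ha2, Plod1 and Lox, and the asterisk marks the 7 genes with an adjusted p under 0.05.

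The stretches just upstream of 4 of these genes are shown because Serpinh1 and P4ha2 fell while P4ha1 and P4ha3, of the same family as P4ha2, did not pass the test. The sequences are from RefSeq on GRCm38.p6 and run over the 250 bases before the start site, read 5′ to 3′ on the strand of the gene. They cover chr7:99353240-99353489 on the minus strand for Serpinh1, chr10:59323046-59323295 on the plus strand for P4ha1, chr11:54100674-54100923 on the plus strand for P4ha2 and chr7:100285270-100285519 on the plus strand for P4ha3. Capitals mark ACGTG or its reverse complement CACGT, the core of the element that hypoxia-inducible factors bind.
Serpinh1: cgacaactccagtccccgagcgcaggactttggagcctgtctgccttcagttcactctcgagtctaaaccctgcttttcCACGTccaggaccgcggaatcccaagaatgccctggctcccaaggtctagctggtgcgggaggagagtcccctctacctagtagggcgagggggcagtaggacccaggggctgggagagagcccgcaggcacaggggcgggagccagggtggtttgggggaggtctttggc
P4ha1: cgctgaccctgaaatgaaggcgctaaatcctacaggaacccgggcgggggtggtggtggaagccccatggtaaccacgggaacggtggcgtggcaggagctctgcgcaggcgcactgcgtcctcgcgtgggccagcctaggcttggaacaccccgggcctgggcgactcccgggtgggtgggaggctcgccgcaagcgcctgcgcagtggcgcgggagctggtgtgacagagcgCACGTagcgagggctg
P4ha2: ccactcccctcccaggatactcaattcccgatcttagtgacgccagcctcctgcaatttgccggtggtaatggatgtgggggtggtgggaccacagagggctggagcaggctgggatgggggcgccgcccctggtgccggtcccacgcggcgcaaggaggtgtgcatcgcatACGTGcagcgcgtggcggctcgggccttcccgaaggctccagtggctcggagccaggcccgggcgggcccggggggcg
P4ha3: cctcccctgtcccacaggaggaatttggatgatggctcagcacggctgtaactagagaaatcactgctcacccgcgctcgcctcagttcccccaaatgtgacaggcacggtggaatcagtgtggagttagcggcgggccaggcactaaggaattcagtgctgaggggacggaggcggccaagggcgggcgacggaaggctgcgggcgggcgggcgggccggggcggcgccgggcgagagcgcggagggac

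A match to ACGTG on either strand was found in Serpinh1, P4ha1 and P4ha2 and not in P4ha3. In windows that also take in the first 50 bases of the transcript, P4ha2 had 2 matches, 78 bases before the start and at base 11 after it, and Serpinh1 and P4ha1 had 1 each, 171 and 16 bases before it. RefSeq windows were used for 6 of the 10 genes. None was available for Plod2, Loxl1 and Loxl2, and none was used for Lox. Of the 6 windows 4 held the core, that of P4ha1, which did not pass the test, among them. Plod3 held it 54 bases before its start and Plod1 did not. The core occurred in 19.6% of 32851 promoter windows of that length, and in 24.9% of the 13159 windows whose GC content lay in the range of the 6. The heat shock element GAANNTTC, searched because Serpinh1 is a heat-inducible chaperone gene, was in the Plod1 window alone of the 6 and in 7.86% of all windows. A CCAAT box was in the Plod3 window alone of the 6 and in 37.4% of all. No match says only that these letters are not in the window.

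Serpinh1 encodes a chaperone that binds collagen in the ER and is largely dedicated to it. It had by far the highest level of the 10 genes in both genotypes. In the file it is MGP_C57BL6NJ_G0033031, on the minus strand of chromosome 7 between 106048530 and 106056288, as the C57BL/6NJ assembly of the identifiers counts them. The WT libraries held 327.5, 156.6, 462.4, 387.7 and 344.0 FPKM in replicates 1 to 5. Ednrb-/- replicates 1 to 5 held 109.1, 71.9, 71.8, 87.0 and 37.1 FPKM. The groups did not overlap, and the lowest WT library, replicate 2, was closer to the Ednrb-/- libraries than to the other WT libraries. Mean levels were 336 ± 113 and 75.4 ± 26.3 FPKM (SD, n = 5 each), and the log2 fold change was -2.14 ± 0.32 (standard error; limma, adjusted p = 0.00303). In linear terms the WT mean was 4.45 times the Ednrb-/- mean.

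P4ha1, P4ha2 and P4ha3 encode alternative catalytic alpha subunits of prolyl 4-hydroxylase, each of which works in a complex with the beta subunit P4hb, the protein disulfide isomerase. P4ha2 alone of the 3 passed the test. P4ha1 (MGP_C57BL6NJ_G0017651, chromosome 10, 60587227 to 60640002, plus strand) was the most abundant of the 3 in every library. It was at 41.1, 29.8, 33.2, 28.5 and 28.7 FPKM in WT and at 30.7, 28.7, 28.4, 15.15 and 27.1 FPKM in Ednrb-/- replicates 1 to 5. Apart from Ednrb-/- replicate 4, the Ednrb-/- libraries lay within or just below the WT range. The log2 fold change was -0.33, with a 95% confidence interval of -0.73 to 0.07 (limma, adjusted p = 0.234), and -0.15 without Ednrb-/- replicate 4.

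P4ha2 (MGP_C57BL6NJ_G0018703, chromosome 11, 55212561 to 55245999, plus strand) was lower in each Ednrb-/- library than in any WT library. WT replicates 1 to 5 were at 7.78, 3.35, 9.91, 8.06 and 7.47 FPKM, and Ednrb-/- replicates at 3.17, 1.599, 1.81, 1.45 and 2.41 FPKM. WT replicate 2 was again the lowest of its group and sat just above Ednrb-/- replicate 1. The means of 7.31 ± 2.41 and 2.09 ± 0.709 FPKM (SD, n = 5 each) gave a log2 fold change of -1.56 ± 0.27 (standard error; limma, adjusted p = 0.00402). P4ha3 (MGP_C57BL6NJ_G0033049, chromosome 7, 107076208 to 107117671, plus strand) was the 1 gene of the 10 with a higher mean in Ednrb-/-. It held 5.52, 5.71, 5.54, 5.77 and 4.48 FPKM in WT, a narrow range, against 3.14, 10.5, 12.8, 6.26 and 6.34 FPKM in Ednrb-/- replicates 1 to 5. Thus 4 Ednrb-/- libraries were above all WT libraries and replicate 1 was below all of them. The log2 fold change was 0.36, with a 95% confidence interval of -0.28 to 1.00 (limma, adjusted p = 0.425). Without Ednrb-/- replicate 1 it was 0.62 (limma, adjusted p = 0.0596).

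Lysyl hydroxylases modify lysines of collagen. Plod1 acts on the helical part of the chains, Plod2 on the telopeptides at their ends, where the modification sets the kind of crosslink, and Plod3 also adds sugars. Plod1 and Plod3 fell and Plod2 did not pass. Plod1 (MGP_C57BL6NJ_G0029540, chromosome 4, 157114956 to 157141936, minus strand) was at 7.55, 4.53, 11.2, 8.57 and 9.61 FPKM in WT and at 3.45, 4.07, 1.54, 3.77 and 1.39 FPKM in Ednrb-/- replicates 1 to 5. The groups did not overlap, but replicate 2 of WT and replicate 2 of Ednrb-/- lay close together. The log2 fold change was -1.44 ± 0.30 (standard error; limma, adjusted p = 0.00813).

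Plod2 (MGP_C57BL6NJ_G0035624, chromosome 9, 96225705 to 96296962, plus strand) held 29.0, 14.5, 33.9, 23.0 and 22.8 FPKM in WT and 17.5, 23.0, 14.75, 8.96 and 15.05 FPKM in Ednrb-/- replicates 1 to 5. Most Ednrb-/- libraries were below most WT libraries, while WT replicate 2 was among the low ones and Ednrb-/- replicate 2 among the high ones. Its log2 fold change of -0.63 had a 95% confidence interval of -1.19 to -0.07 and did not pass over all genes (limma, adjusted p = 0.109). It passed without WT replicate 2 (-0.80, limma, adjusted p = 0.0328). It also passed with libraries weighted by their scatter within their genotype in these same values (-0.66, limma, adjusted p = 0.0253).

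Plod3 (MGP_C57BL6NJ_G0030643, chromosome 5, 146967600 to 146977229, plus strand) was at 19.6, 19.4, 35.3, 27.7 and 25.4 FPKM in WT and at 13.1, 12.6, 13.9, 21.9 and 13.01 FPKM in Ednrb-/- replicates 1 to 5. In Ednrb-/-, 4 libraries formed a tight group below all WT libraries and replicate 4 stood within the WT range. The log2 fold change was -0.75 ± 0.19 (standard error; limma, adjusted p = 0.0184), the smallest of the 7 falls. The model shares 1003 bases with that of Znhit1, which runs the other way, and the sources used here do not state whether reads were counted by strand. Znhit1 lay between 12.3 and 16.3 FPKM over all libraries.

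Lysyl oxidases work outside the cell and are the last enzymes of the series. All 3 of those in the set fell. Lox (MGP_C57BL6NJ_G0024840, chromosome 18, 53381212 to 53398983, minus strand), the founding member of the family, was at 3.73, 1.57, 14.0, 9.43 and 4.85 FPKM in WT and at 1.48, 0.399, 0.363, 1.252 and 0.159 FPKM in Ednrb-/- replicates 1 to 5. The groups did not overlap, but WT replicate 2 and Ednrb-/- replicate 1 nearly met, and the WT libraries spanned a wide range. The means of 6.72 ± 4.99 and 0.731 ± 0.593 FPKM (SD, n = 5 each) gave a log2 fold change of -2.38 ± 0.50 (standard error; limma, adjusted p = 0.00808). The lowest Ednrb-/- library held 13 reads of Lox, and the log2 fold change was -3.20 when the recovered reads were tested by limma's voom.

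Loxl1 (MGP_C57BL6NJ_G0035381, chromosome 9, 59185515 to 59216805, minus strand), which is known for its part in elastic fibres, held 8.32, 3.68, 17.4, 16.1 and 10.7 FPKM in WT. In Ednrb-/- replicates 1 to 5 it held 3.72, 3.13, 0.344, 2.89 and 0.141 FPKM. The Ednrb-/- libraries were of 2 kinds, with replicates 1, 2 and 4 near the lowest WT library and replicates 3 and 5 far below. Replicate 1 of Ednrb-/- was slightly above WT replicate 2, so the groups overlapped. The log2 fold change was -2.42 ± 0.59 (standard error; limma, adjusted p = 0.0154), and -3.14 by voom on the recovered reads, of which the lowest library held 8.

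Loxl2 (MGP_C57BL6NJ_G0021926, chromosome 14, 67090148 to 67183974, plus strand), which crosslinks the network collagen of basement membranes, was the most abundant of the 3 oxidases in each library. It was at 38.5, 13.7, 59.7, 45.2 and 38.1 FPKM in WT and at 12.6, 15.75, 10.4, 8.77 and 8.30 FPKM in Ednrb-/- replicates 1 to 5. WT replicate 2 lay inside the Ednrb-/- range and the other 4 WT libraries far above it. Loxl2 averaged 39.0 ± 16.6 and 11.2 ± 3.07 FPKM (SD, n = 5 each), and its log2 fold change was -1.66 ± 0.33 (standard error; limma, adjusted p = 0.00665). The family members outside the set, Loxl3 and Loxl4, also fell, from 3.93 ± 1.23 to 0.890 ± 0.320 FPKM and from 2.47 ± 1.11 to 0.283 ± 0.272 FPKM (SD, n = 5 each; limma, log2 fold changes -1.65 and -1.91, adjusted p = 0.00276 and 0.00334).

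By mean level the order in WT was Serpinh1, Loxl2, P4ha1, Plod3, Plod2, Loxl1, Plod1, P4ha2, Lox and P4ha3. In Ednrb-/- it was Serpinh1, P4ha1, Plod2, Plod3, Loxl2, P4ha3, Plod1, P4ha2, Loxl1 and Lox. Thus Loxl2 went from the second place to the fifth and P4ha3 from the last to the sixth. Most neighbours in these orders changed places in at least 1 library. In WT, Serpinh1 over Loxl2 and Plod2 over Loxl1 were the steps that held in 5 of 5 libraries. In Ednrb-/- these were Serpinh1 over P4ha1 and P4ha1 over Plod2.

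Which paralog supplies a family's transcripts was compared next. P4ha1 made up 71.7 ± 4.22% of the summed FPKM of the 3 alpha subunits in WT and 72.2 ± 7.14% in Ednrb-/- (SD, n = 5 each). The P4ha2 share was 16.1 ± 4.77% in WT and 5.95 ± 1.92% in Ednrb-/-, and that of P4ha3 12.2 ± 1.90% and 21.8 ± 8.73%. The second subunit in rank was therefore P4ha2 in 4 of 5 WT libraries and P4ha3 in 4 of 5 Ednrb-/- libraries. The summed level of the 3 was 45.0 ± 6.44 FPKM in WT and 35.9 ± 7.83 FPKM in Ednrb-/-, and the ranges overlapped.

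The log2 ratio of P4ha1 to P4ha2 was 2.13 ± 0.535 in WT and 3.36 ± 0.348 in Ednrb-/- (SD, n = 5 each), and the groups did not overlap. The difference of 1.23 had an exact two-sided permutation p of 0.00794, the smallest that 5 against 5 libraries allow, which is 0.0714 after adjustment over the 9 paralog pairs compared. The ratio of P4ha2 to P4ha3 differed by -1.92 (exact permutation p = 0.0159, adjusted p = 0.0714). So 0 of 9 pairs passed by the exact permutation test with adjustment, while 2 were at an unadjusted p under 0.05. Without Ednrb-/- replicate 1 all 3 prolyl 4-hydroxylase pairs passed, at 1.296 for P4ha1 to P4ha2, -1.03 for P4ha1 to P4ha3 and -2.32 for P4ha2 to P4ha3.

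**Figure D2:**
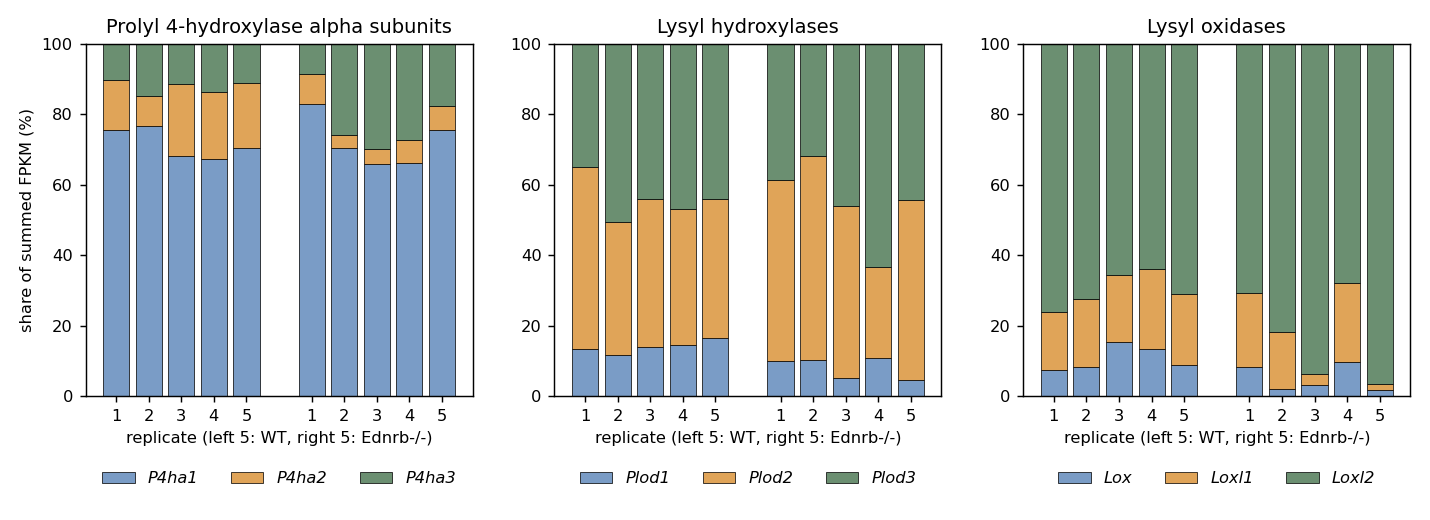
Share of each paralog in the summed FPKM of its family, in percent, for every library, with WT replicates on the left and Ednrb-/- replicates on the right of each panel. The P4ha2 band is at most 8.57% in Ednrb-/- libraries and at least 8.61% in WT libraries, and Loxl2 reaches 93.6% and 96.5% of its family in Ednrb-/- replicates 3 and 5.

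In the lysyl hydroxylase family the summed level was 58.4 ± 14.9 FPKM in WT and 33.6 ± 4.09 FPKM in Ednrb-/- (SD, n = 5 each). The Plod1 share was 14.0 ± 1.75% and 8.22 ± 3.03%, and in every Ednrb-/- library it was below the lowest WT share of 11.8%. Plod2 and Plod3 each supplied between 42.0% and 47.1% of the sum in both genotypes on average. Ednrb-/- replicate 4 departed from this, with Plod3 at 63.2% and Plod2 at 25.9%. The differences of the 3 ratios did not pass (Plod1 to Plod2 -0.81 and Plod1 to Plod3 -0.69, exact permutation, adjusted p = 0.161 each; Plod2 to Plod3 0.12, adjusted p = 0.866). The lysyl oxidase sum was 57.0 ± 26.7 FPKM in WT and 13.9 ± 4.502 FPKM in Ednrb-/-. Loxl2 supplied 69.8 ± 5.03% and 82.1 ± 12.9% of it. Loxl1 supplied 16.5% to 22.8% of the family in WT libraries and 20.9%, 16.2% and 22.4% in Ednrb-/- replicates 1, 2 and 4. In Ednrb-/- replicates 3 and 5 it supplied only 3.10% and 1.64%.

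The substrates of these enzymes, the collagens, had larger median falls than the 10 genes. Of the 9 fibrillar collagen genes tested 7 fell and 0 rose, with a median log2 fold change of -2.33, and of the 8 basement membrane and network collagen genes tested 7 fell and 0 rose, with a median of -1.83. Col1a1, the main chain of collagen I, went from 210 ± 130 to 20.2 ± 18.5 FPKM (SD, n = 5 each; limma, log2 fold change -3.68, adjusted p = 0.00708). Col5a2, a chain of the collagen V that starts new fibrils, went from 24.6 ± 12.5 to 4.07 ± 1.62 FPKM (limma, log2 fold change -2.39, adjusted p = 0.00329). Each gene of the set was therefore set against fibrillar collagen, the mean log2 level of Col1a1, Col1a2, Col3a1, Col5a1 and Col5a2 in the same library. This denominator leaves out the network collagen and the elastic fibres named above for Loxl2 and Loxl1.

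Relative to these collagens P4ha1, P4ha3, Plod1, Plod2 and Plod3 were higher in Ednrb-/- than in WT. The log2 ratios were higher by 2.51, 3.20, 1.40, 2.21 and 2.09 in that order (exact two-sided permutation, p = 0.0159 each, adjusted p = 0.0317 over 10 genes), and for each gene the highest WT library was above the lowest Ednrb-/- library. For P4ha1 the ratio in replicates 1 to 5 was 0.50, 1.26, -0.91, -0.54 and -0.45 in WT and 1.29, 2.74, 3.63, 0.82 and 3.92 in Ednrb-/-. Ednrb-/- replicates 1 and 4, which kept the most fibrillar collagen, thus had the lowest ratios of their group. For Lox and Loxl1 the differences were 0.46 and 0.42, for Serpinh1 0.69, for Loxl2 1.18 and for P4ha2 1.28, and these 5 did not pass (exact permutation, adjusted p = 0.191, 0.113, 0.115, 0.115 and 0.0661). The 5 calls were made with all 10 libraries. The count was 0 after leaving out any 1 library other than WT replicate 2, and 5 without WT replicate 2. Each of these omissions, that of WT replicate 2 included, allows fewer assignments than all 10 libraries. With Col1a1 and Col1a2 alone as the denominator the count was 0.

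**Figure D3:**
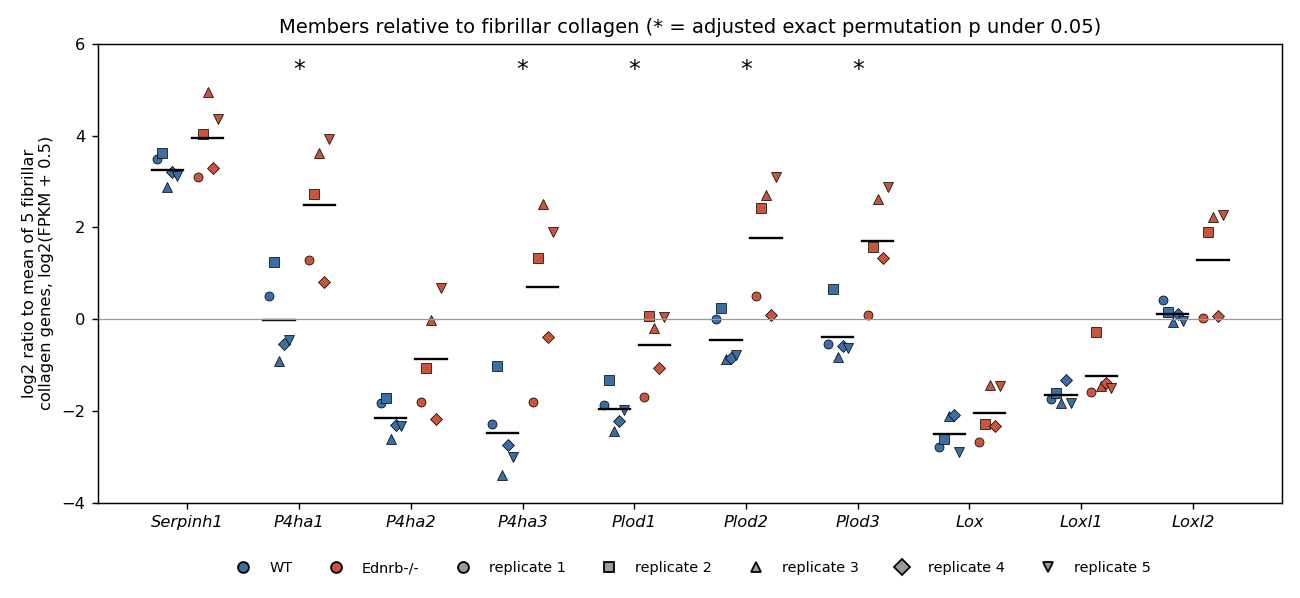
Log2 ratio of each gene to the mean of 5 fibrillar collagen genes, per library, with WT in blue, Ednrb-/- in red, symbols for the replicate number and bars for the mean of 5 libraries. An asterisk marks the 5 genes with an adjusted exact permutation p under 0.05. In those genes Ednrb-/- replicates 1 and 4 lie nearest to the WT libraries.

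The genes that work beside the set in the ER also fell, though not all. Of 14 other collagen enzymes and chaperones tested, 9 fell and 0 rose, with a median of -1.17. In the complex that hydroxylates single prolines at another carbon, made of Crtap, P3h1 and Ppib, the first 2 genes fell. Crtap, the helper protein, went from 33.7 ± 11.6 to 5.18 ± 3.37 FPKM (limma, log2 fold change -2.71, adjusted p = 0.00309), and P3h1, the enzyme, had a log2 fold change of -1.72 (limma, adjusted p = 0.00386). P3h4, a partner of Plod1 in lysine hydroxylation, and Fkbp9, a prolyl isomerase, had log2 fold changes of -1.41 and -1.71 (limma, adjusted p = 0.00329 and 0.00383). Ppib, the cyclophilin of the complex, was at 66.6 ± 6.58 and 63.5 ± 11.5 FPKM (SD, n = 5 each; limma, adjusted p = 0.691). P4hb, the beta subunit shared by the 3 P4ha proteins, had a log2 fold change of -0.50 (limma, adjusted p = 0.00765). These last 2 genes were named after their values were seen.

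**Figure D4:**
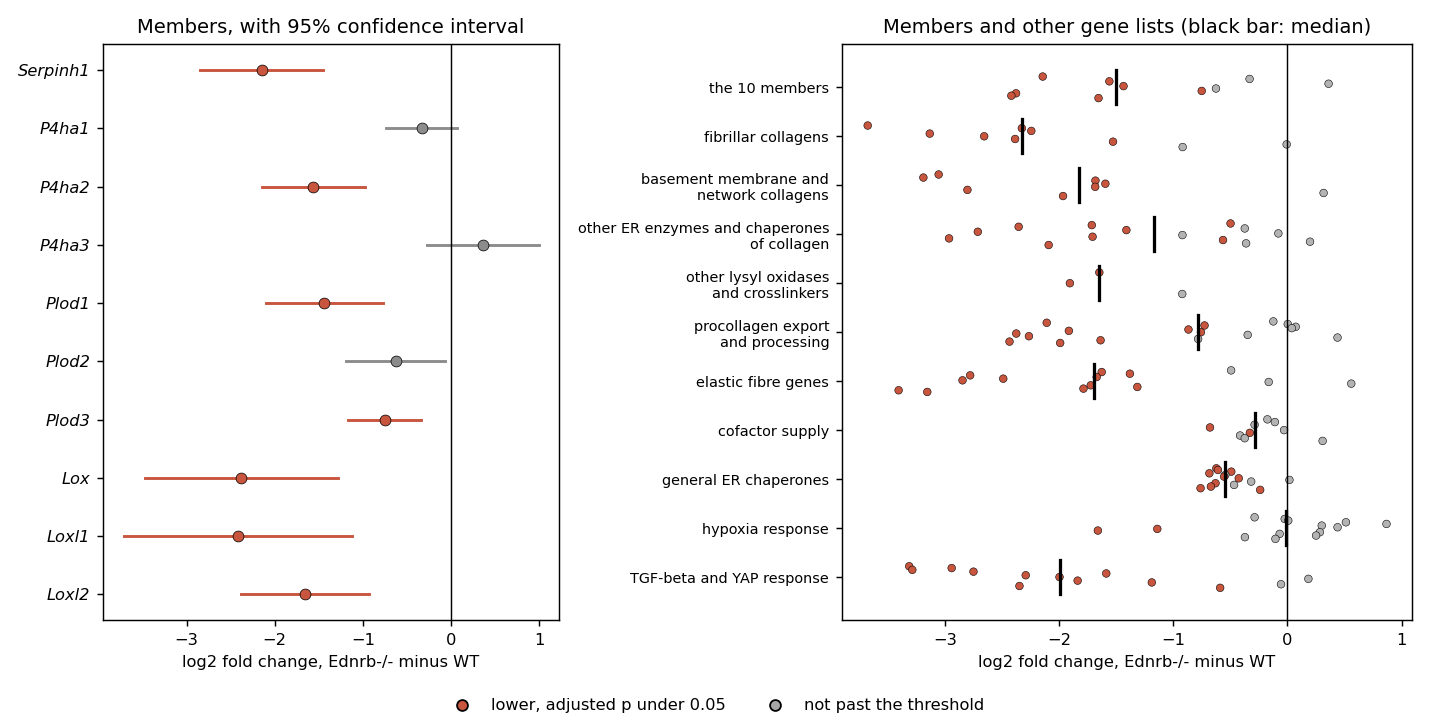
Left, log2 fold change of each of the 10 genes, Ednrb-/- minus WT, with its 95% confidence interval. Right, the fold changes of the 10 genes and of the tested genes of 10 other lists, with a black bar at each median, which lies at -1.50 for the 10 genes, at -2.33 for fibrillar collagens and at -0.01 for the hypoxia response. Red marks genes with an adjusted p under 0.05.

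Chaperones that serve secreted proteins in general fell less. Of 14 tested, 10 fell and 0 rose, with a median of -0.55. Manf and Hyou1, which respond to ER stress, had log2 fold changes of -0.76 and -0.67 (limma, adjusted p = 0.00313 and 0.00472). Of 17 genes for export and processing of procollagen, 10 fell and 0 rose, with a median of -0.78. Among them were the convertase gene Furin (-1.64), the retrieval receptor gene Kdelr3 (-1.92), the vesicle coat gene Sec24d (-2.11) and Pcolce, the enhancer of C-propeptide removal (-2.27; limma, adjusted p = 0.00276, 0.00329, 0.00412 and 0.00381). Of 14 tested genes of elastic fibres and other lysyl oxidase partners, 11 fell and 0 rose, with a median of -1.70. Eln, the elastin gene itself, was too low to be tested at 0.267 ± 0.0475 and 0.275 ± 0.194 FPKM. Ltbp1 and Fn1, which anchor latent TGF-beta and build the fibronectin matrix, had log2 fold changes of -1.72 and -3.41 (limma, adjusted p = 0.00276 each).

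Genes that supply ascorbate, copper, zinc and iron to these enzymes mostly did not pass. Of 9 tested 2 fell, where 13% of all genes tested fell, and 0 rose, with a median of -0.29. Atp7a, which loads copper in the secretory pathway, went from 5.22 ± 0.954 to 3.06 ± 0.427 FPKM (limma, log2 fold change -0.68, adjusted p = 0.00772). Slc31a1, the uptake transporter, went from 18.8 ± 1.06 to 14.9 ± 1.86 FPKM (limma, log2 fold change -0.33, adjusted p = 0.0353). Atox1, the copper chaperone of the same list, named after its values were seen, was at 53.7 ± 6.41 and 53.3 ± 12.3 FPKM (SD, n = 5 each; limma, adjusted p = 0.913). The count of falls was 1 without WT replicate 3, 4 or 5 or without Ednrb-/- replicate 3 or 5, and 1 by voom. Of 14 hypoxia response genes tested 2 fell and 0 rose, with a median of -0.01, and 3 rose without Ednrb-/- replicate 4 or with weights for the libraries. The 2 that fell were Ndrg1 and Adm (limma, log2 fold changes -1.14 and -1.66, adjusted p = 0.00438 and 0.0118). Of 13 genes tested from a TGF-beta and YAP response list, 11 fell and 0 rose, with a median of -1.998. That list also holds the ligand genes Tgfb1, Tgfb2 and Tgfb3 and the receptor genes Tgfbr1 and Tgfbr2, so it is not a measure of response alone.

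Contractile markers moved with these genes. All 9 smooth muscle and myofibroblast markers tested fell, with a median of -2.58, and the 11 listed summed to 319 to 2436 FPKM in WT and to 44.1 to 273 FPKM in Ednrb-/- libraries. Their part in the result was not tested. Myh11, the myosin of mature smooth muscle, stayed under 1 FPKM in all libraries. Of 5 fibroblast-like mesenchyme markers tested 3 fell and 1 rose, with summed levels of 49.5 to 89.8 FPKM in WT and 55.5 to 137 FPKM in Ednrb-/-, and the count that fell was 1 without any of WT replicates 1, 3, 4 and 5 or Ednrb-/- replicates 2, 3 and 5. Of 6 cartilage and bone markers tested 2 fell and 0 rose, and Sp7, Matn1, Comp and Ibsp stayed under 1 FPKM. Notochord markers summed to 45.3 to 102 FPKM in WT and 11.1 to 59.9 FPKM in Ednrb-/-, and Noto stayed under 1 FPKM in all libraries. Of 7 tested, T and the keratin genes Krt8, Krt18 and Krt19 fell, while Shh, Foxa2 and Foxa1 did not pass at log2 fold changes of 1.41, 1.17 and 1.03 (limma, adjusted p = 0.116, 0.130 and 0.144). Without Ednrb-/- replicate 1, 3 notochord markers rose. The part of these lists in the result was likewise not tested.

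Libraries of a genotype differed among themselves along the same lines. WT replicate 2 had the lowest WT level of 8 of the 10 genes and WT replicate 3 the highest of 8. In Ednrb-/-, replicate 5 was lowest for 5 genes and replicate 1 highest for 5. The exceptions in WT were P4ha1, highest in replicate 1, and P4ha3, which hardly varied. WT replicate 2 also had the lowest and WT replicate 3 the highest summed smooth muscle level, 319 and 2436 FPKM. In Ednrb-/- these sums were lowest in replicates 5 and 3, at 44.1 and 53.5 FPKM, the same libraries in which Loxl1 was at 0.141 and 0.344 FPKM.

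Deviations of each library from the mean of its genotype were compared between each gene and the mean of each of 18 lists, over 10 libraries and 180 relations, with exact permutation within genotype. By Pearson's r, 27 relations passed after adjustment, 7 each for Serpinh1 and Lox, 6 each for Plod1 and Loxl1 and 1 for Plod3, and 17 of them also passed by Spearman's rho. Serpinh1 followed the TGF-beta and YAP response list, its ligand and receptor genes included (r = 0.938, rho = 0.964, exact permutation, adjusted p = 0.00625 for both). Without WT replicate 2 and Ednrb-/- replicate 5 its r was 0.895. Lox followed the same list (r = 0.942, rho = 0.976, exact permutation, adjusted p = 0.00625 for both; r = 0.890 without those libraries). Loxl1 and Plod1 followed the smooth muscle list, at r = 0.934 and 0.947 and rho = 0.842 and 0.855 (exact permutation, adjusted p = 0.0112 and 0.0163 for r and 0.0312 and 0.0600 for rho), and at r = 0.938 and 0.919 without WT replicate 2 and Ednrb-/- replicate 5. Other lists came close for these genes. With the basement membrane and network collagens r was 0.9355 for Serpinh1 and 0.915 for Lox (exact permutation, adjusted p = 0.0112 each). With procollagen export and processing r was 0.933 for Loxl1 and 0.935 for Plod1 (exact permutation, adjusted p = 0.0112 each). Several of the lists vary together across libraries, and all values of a library share its depth and scaling, so these relations do not single out a list.

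P4ha1 and Plod3 had correlations of opposite sign with the hypoxia response list, though only that of Plod3 passed, by r and not by rho. Over the 10 libraries Plod3 had an r of -0.911 and a rho of -0.842 with it (exact permutation, adjusted p = 0.0112 and 0.0533), and an r of -0.840 without WT replicate 3 and Ednrb-/- replicate 4. P4ha1 had an r of 0.911 and a rho of 0.818 (exact permutation, adjusted p = 0.134 and 0.126), and an r of 0.880 without the same libraries. The mean level of the list was lowest in Ednrb-/- replicate 4, at 3.49 on the log2(FPKM + 0.5) scale against 4.56 to 4.67 in the other Ednrb-/- libraries, and highest in WT replicate 1, at 4.97. Those are the libraries in which P4ha1 was lowest and highest. Ednrb-/- replicate 4 also had the lowest Plod2 level and the highest Plod3 level of its group. For P4ha1, P4ha2, P4ha3, Plod2 and Loxl2 0 relations passed.

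**Figure D5:**
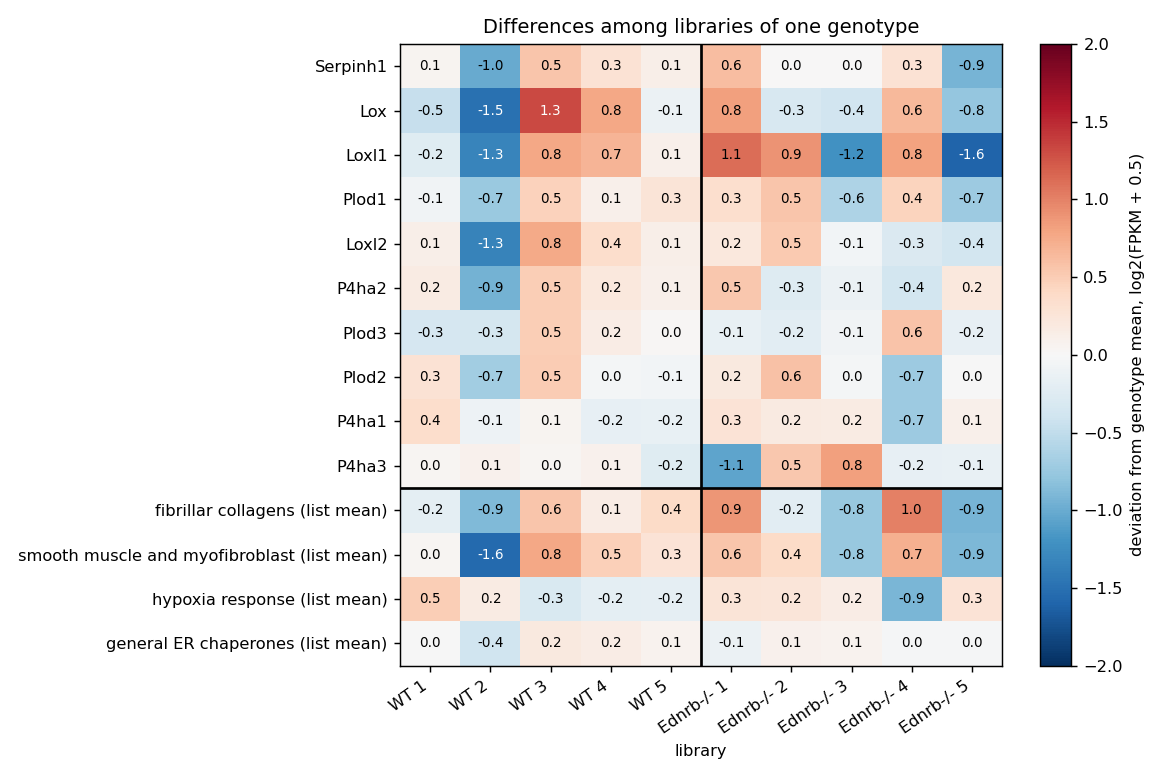
Deviation of each library from the mean of its genotype, in log2(FPKM + 0.5), for the 10 genes (upper rows) and for the mean of 4 lists (lower rows), with red above and blue below that mean. WT replicate 2 is below the mean in 9 of the 10 genes, and Ednrb-/- replicate 4 is red for Plod3 and blue for Plod2, P4ha1 and the hypoxia response.

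The genes whose deviations were most like those of each member were listed by Pearson's r over the 10 libraries, as a description. They were picked as the highest among all genes tested, so a high r was bound to be found for every member. Creb3l1, a transcription factor of the secretory pathway known to act on collagen genes, was the closest to Plod1 (r = 0.977), and fell from 10.7 ± 5.97 to 1.66 ± 1.28 FPKM (limma, log2 fold change -2.44, adjusted p = 0.0108). Elk3 was among the 3 closest to both Plod1 and Loxl1 (r = 0.966 and 0.969). Des, which encodes the muscle filament desmin, was among the 3 closest to Serpinh1 (r = 0.965), after Ggta1 and Mogat2 (r = 0.973 and 0.967). Mfge8, Map3k7cl and Egfr were the closest to Lox (r = 0.975, 0.975 and 0.974). The antisense gene Gm44686 was the closest to Plod3 (r = 0.974), before Nfkb2 and Nomo1 (r = 0.9696 and 0.969), and Anxa7 was the closest to Loxl1 (r = 0.973). The closest to P4ha1, P4ha2, P4ha3, Plod2 and Loxl2 were Pttg1 (r = 0.957), Usp12 (0.965), Ero1lb (0.928), AI593442 (0.964) and Sypl (0.9704), of which Sypl alone passed the test between genotypes (limma, log2 fold change -0.53, adjusted p = 0.0452).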

How the data were processed

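RNA was sequenced from 10 explant libraries, 5 WT and 5 Ednrb-/-. The values are FPKM per gene as deposited by the authors, per the file headers, in 1 table with 1 column per library, and 0 other columns of values per sample were present. Per the labels' protocols, RNA was taken up in TRIzol. Per the submitters' processing notes, fastp, HISAT2 2.0.5, featureCounts 1.5.0-p3 and the build mm10 were used. The sources used here state neither filters nor the use of strand. The identifiers are those of the C57BL/6NJ assembly, so coordinates stand as in the file and were not converted.

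FPKM times gene length was a whole number of steps for 100% of values within 0.01 of a read in each library, which gave back the counts of reads. Pairs of libraries of a genotype correlated at 0.925 to 0.979 and differed by 15.3 to 96.5 times sampling noise (mean chi-square per gene), so no pair looked like repeats of 1 library. That does not show that they are independent. The labels do not say whether replicates came from separate embryos, and p-values measure the spread between these samples.

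Genes with 0.5 FPKM or more in 5 or more libraries entered limma 3.58.1 (R 4.3.3, limma-trend) on log2(FPKM + 0.5) against genotype, with no covariate and two-sided p-values adjusted by Benjamini-Hochberg over 15156 genes at a threshold of 0.05. Ratios of paralogs and to fibrillar collagen were compared by exact permutation over all assignments of the libraries (Python 3.11.15, scipy 1.17.1). Alternatives were other pseudocounts, filters and scalings, voom on recovered reads, library weights, a replicate block and leaving out each library. The fit was tested on simulated data before use. Promoter windows came from RefSeq on GRCm38.p6, which gave none for Plod2, Loxl1 and Loxl2. None was used for Lox, whose chromosome was left out when windows of the set were matched.

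The genes of the set and the lists were chosen with earlier results of these data known. Genes named are the 10 of the set, Ednrb, up to 4 genes of each list with the lowest p, and the 3 genes closest to each member across libraries. Any other is said to be named after its values were seen or stands for a list's markers.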

Additional observations from a re-analysis of the deposited data

Results flagged for a closer look

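Of 20 groups of 5 libraries (10 genes in each genotype) examined for a library that stands far from the rest, 3 held one. The groups share the same libraries and are not independent, so this count was not set against chance. Ednrb-/- replicate 4 was concerned in 2 of them, as the lowest for P4ha1, at 15.15 FPKM against 27.1 to 30.7 FPKM in the other Ednrb-/- libraries, and as the highest for Plod3, at 21.88 FPKM against 12.6 to 13.9 FPKM. Without it the log2 fold changes of P4ha1 and Plod3 were -0.15 (limma, adjusted p = 0.374) and -0.89 (limma, adjusted p = 0.00523). The same library had the lowest level of the hypoxia response list, and the part of that list in these values was not tested. In WT, replicate 5 stood below the rest for P4ha3, at 4.48 FPKM against 5.52 to 5.77 FPKM.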

How the results depend on the processing

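Of the 10 genes, 9 kept their direction and their side of the threshold in 19 of 19 alternatives, and Plod2 in 17 of 19, passing without WT replicate 2 and with library weights. The 7 falls stood in each alternative at adjusted p-values of at most 0.0493 (limma). The values showed no sign of pairing by replicate number. Correlations of same-numbered libraries were -0.03, 0.01, -0.15, 0.15 and -0.16, the own number being highest in 1 of 5. Such a check cannot exclude that same-numbered samples were handled together. With the replicate block 7 of the 10 genes fell, and over all genes 1458 fell and 419 rose. The number of genes called higher, 990, was 659 without a filter, 1603 under quantile normalization (1730 lower) and 1684 with library weights, and ranged from 513 to 1150 when 1 library was left out, with 513 to 586 without WT replicate 3, 4 or 5 or Ednrb-/- replicate 3 or 5. By voom on the recovered reads 1909 genes fell and 1226 rose. The number of ratios to collagen that passed, 5, ranged from 0 to 5 when 1 library was left out, and was 0 with Col1a1 and Col1a2 as the denominator. The number of paralog ratios that passed, 0, ranged from 0 to 3. The difference of Lox to Loxl1, 0.04, turned to -0.0853 with a pseudocount of 0.1 and ranged from -0.17 to 0.34 when 1 library was left out, and that of Plod2 to Plod3, 0.12, from -0.0725 to 0.45. On reads per kilobase the ratios of Lox and Loxl1 to collagen turned to -0.145 and -0.0131. The cause of these changes was not tested. Depth limits Lox and Loxl1 in Ednrb-/-, with as few as 13 and 8 reads.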
